A study of Mus musculus with 8 samples.

Results

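Foxi1, Atp6v1b1, Kcnk5 and Aqp5 are 4 of the 14879 genes in the deposited table of single mouse mammary epithelial cells. They were chosen by symbol, from values measured in these same cells. Foxi1, Atp6v1b1 and Kcnk5 were picked for a difference between secretory and hormone-sensing luminal cells, and Aqp5 for a difference between the luminal cells and libraries 2 and 4. For the genes chosen on them those contrasts are therefore given below as description, and tests of these genes bear on other splits of the cells. The same contrasts are also fitted across genes, where nothing is read from the calls of genes chosen on them. Mice aged 5 weeks gave the mammary glands, from which ducts and the terminal end buds that tip growing ducts were dissected, and live cells were sorted. The strain is labelled only as mixed, no treatment is named, and the labels do not say which library held ducts, which held end buds or how many animals were used. Plate 1 and plate 2 each gave 4 libraries of 96 wells, so the series holds 8 libraries and 768 wells. Libraries 1 and 3 of both plates gave 46 kept cells, of which 14 were called hormone-sensing because Prlr, the prolactin receptor, exceeded Trf, the iron carrier transferrin. The other 32 were called secretory, and the 68 kept cells of libraries 2 and 4 served as contrast. A kept cell had at least 1500 transcripts and at least 500 genes.

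The vacuolar proton pump moves protons across membranes at the cost of ATP. Its V1 sector, on the cytosolic side, burns ATP, and its V0 sector forms the path through the membrane. Atp6v1b1 encodes the B subunit form of V1 used by acid-secreting cells of the kidney, epididymis and inner ear, whereas Atp6v1b2 encodes the form found in most cells. Foxi1 is a forkhead transcription factor of those acid-secreting cells and of airway ionocytes, in which it is known to switch on proton pump genes. Kcnk5 encodes TASK2, a background potassium channel that opens as the outside turns alkaline. Aqp5 encodes a water channel of the apical membrane in salivary, tear and sweat glands.

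In GENCODE's annotation of GRCm38, the assembly also called mm10, Foxi1 lies on chromosome 11 from 34204338 to 34208089 on the minus strand. Atp6v1b1 lies on chromosome 6 from 83742990 to 83758855 on the plus strand. Kcnk5 lies on chromosome 14 from 20140057 to 20181809 on the minus strand, and Aqp5 on chromosome 15 from 99590782 to 99594829 on the plus strand. All 4 are protein-coding, and no other annotated gene overlaps any of them. The windows of 250 bases before the RefSeq starts of the transcription factor and of the pump subunit are shown because these genes are asked to share cells. Capitals mark the forkhead-type word TGTTTAC, searched on both strands. This word was chosen after the windows had been seen. Both windows are from GRCm38.p6 and are written 5′ to 3′ on the gene's own strand.
Foxi1, chr11:34208090-34208339, minus strand: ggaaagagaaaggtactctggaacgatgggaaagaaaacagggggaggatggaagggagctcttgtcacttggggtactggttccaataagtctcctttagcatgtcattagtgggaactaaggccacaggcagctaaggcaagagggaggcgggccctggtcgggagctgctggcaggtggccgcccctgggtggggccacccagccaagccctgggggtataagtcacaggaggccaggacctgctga
Atp6v1b1, chr6:83742767-83743016, plus strand: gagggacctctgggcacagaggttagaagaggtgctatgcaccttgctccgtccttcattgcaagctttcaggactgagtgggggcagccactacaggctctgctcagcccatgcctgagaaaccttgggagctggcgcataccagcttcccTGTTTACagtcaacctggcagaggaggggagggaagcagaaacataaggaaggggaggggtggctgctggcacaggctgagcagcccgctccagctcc
The Atp6v1b1 window held 1 match, starting 98 bases before the RefSeq start. The Foxi1, Kcnk5 and Aqp5 windows held 0. RefSeq and GENCODE starts differ, so these windows are not all upstream of the GENCODE genes. Most of the Aqp5 window, chr15:99590778-99591027, lies inside its GENCODE gene. The ends of the Atp6v1b1 and Kcnk5 windows also do. Among 32851 windows of the same length, 3.17% held the word, and a match is a description of letters only.

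The 4 libraries that hold the luminal cells gave 126854, 220249, 182290 and 212449 transcripts over all wells, in the order plate 1 library 1, plate 1 library 3, plate 2 library 1 and plate 2 library 3. Hormone-sensing cells were deeper, with a median of 17924 transcripts per cell against 6690 in secretory cells and 13094.5 in libraries 2 and 4. The class names were compared with the marker lists, leaving out Prlr and Trf, which set the classes. The other 8 hormone-sensing markers summed to 41.3 to 104 per 10000 transcripts in hormone-sensing cells and 0 to 26.6 in secretory cells, which did not overlap. The other 10 secretory markers summed to 2.78 to 413 in secretory cells and 0 to 18.4 in hormone-sensing cells, which overlapped at the low end. Acta2, a smooth muscle actin of basal cells, stood at 76.0 per 10000 in libraries 2 and 4, 0.889 in hormone-sensing cells and 0.573 in secretory cells. Of the 32 secretory cells, 4 carried more transcripts of a blood, immune or other non-epithelial list than of the epithelial lists, 3 of them in plate 1 library 1 and 1 in plate 1 library 3. None of these 4 cells held any transcript of the 4 genes. Nearest to the class boundary were a hormone-sensing cell with 8 Prlr and 0 Trf transcripts and 3 secretory cells with equal Prlr and Trf. In 2 of the 3 both counts were 0, so the name secretory rests on the rule alone there. None of these cells held any transcript of the 4 genes either. In plate 1 library 2, 9 of 12 cells of the contrast group were likewise led by a non-epithelial list. No doublets were removed, and 1 secretory and 1 hormone-sensing cell held 10 or more basal marker transcripts.

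Foxi1 was found in 10 of the 32 secretory cells and nowhere else among kept cells. Its pooled level, transcripts summed over the cells of a library and divided by their total, was 0 per 10000 in plate 1 library 1, 1.92 in plate 1 library 3, 5.41 in plate 2 library 1 and 2.28 in plate 2 library 3. The level in plate 2 library 1 rests on 8 transcripts of 14782. The libraries thus spread widely, with a mean of 2.40 ± 2.24 (SD, n = 4 libraries), and the gene was missing from 1 of them. In that library 0 of 102038 transcripts allows a level of up to 0.294 per 10000. Over all secretory cells 50 Foxi1 transcripts gave 1.59 per 10000 (exact Poisson 95% interval 1.18 to 2.10). The share of secretory cells with the transcript was 31.2% (Clopper-Pearson 95% interval 16.1 to 50.0%), or an expected 15.2% with every cell thinned to 1500 transcripts. These intervals cover counting error only. In the 10 cells Foxi1 gave 1 transcript in 1 cell, 2 in 3 cells, 3 in 2 cells, 5 in 2 cells, 9 in 1 cell and 18 in 1 cell. It was 0 of 337608 transcripts in hormone-sensing cells and 0 of 1130586 in libraries 2 and 4. With a floor of 3 counts over the group, the secretory level was at least 17.9-fold higher than in hormone-sensing cells and at least 60.0-fold higher than in libraries 2 and 4. Folds given as at least, here and below, divide the pooled level by this floor. They leave out the counting error of the pooled level itself.

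Atp6v1b1, the acid-secreting form of the pump's B subunit, was found in a larger set of the same class. Its pooled secretory level was 2.25 per 10000 in plate 1 library 1, 3.96 in plate 1 library 3, 2.71 in plate 2 library 1 and 4.21 in plate 2 library 3, a mean of 3.28 ± 0.951 (SD, n = 4 libraries). All 4 libraries held it, though with 4 transcripts in plate 2 library 1, and their range was narrower than that of Foxi1. It was found in 21 of 32 secretory cells, a share of 65.6% (46.8 to 81.4%), or 33.7% at 1500 transcripts. The 108 transcripts gave 3.44 per 10000 (2.82 to 4.15), and no cell held more than 11. Hormone-sensing cells and libraries 2 and 4 held 0. The secretory level was at least 38.7-fold higher than in hormone-sensing cells and at least 130-fold higher than in libraries 2 and 4.

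Kcnk5, the pH-sensitive potassium channel, was found in 14 of 32 secretory cells, a share of 43.8% (26.4 to 62.3%), or 15.0% at 1500 transcripts. Its secretory level was 1.08 per 10000 in plate 1 library 1, 0.481 in plate 1 library 3, 2.71 in plate 2 library 1 and 2.45 in plate 2 library 3, a mean of 1.68 ± 1.07 (SD, n = 4 libraries). Both plate 2 libraries lay above both plate 1 libraries. The level in plate 2 library 1 rests on 4 transcripts in a class of 4 cells, where 3 counts would give 2.03 per 10000. It was 0 in hormone-sensing cells, at least 16.8-fold lower than in secretory cells. Kcnk5 was the 1 gene of the 4 also found in libraries 2 and 4, with 11 transcripts in 10 of 68 cells. There its level was 0 in plate 1 libraries 2 and 4, 0.136 per 10000 in plate 2 library 2 and 0.0853 in plate 2 library 4. Pooled, it stood at 0.0973 per 10000 (0.0486 to 0.174), and the secretory level of 1.50 was 15.4-fold higher. Its share of 14.7% of these cells was 1.57% at 1500 transcripts.

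Aqp5, the water channel, had another pattern and was found in both luminal classes. In hormone-sensing cells its level was 0 in plate 1 library 1, where the class was 1 cell, 2.33 per 10000 in plate 1 library 3, 4.86 in plate 2 library 1 and 3.06 in plate 2 library 3. In secretory cells the same libraries, in the same order, gave 2.06, 0.961, 0 and 1.49 per 10000. The class means of 2.56 ± 2.01 and 1.13 ± 0.875 (SD, n = 4 libraries) overlapped in their spread. The 0 in the hormone-sensing cell of plate 1 library 1 rests on 5968 transcripts and allows up to 5.03 per 10000. The 0 in the secretory cells of plate 2 library 1 rests on 14782 transcripts and allows up to 2.03 per 10000. Aqp5 was found in 9 of 14 hormone-sensing cells (64.3%, interval 35.1 to 87.2%) and 12 of 32 secretory cells (37.5%, 21.1 to 56.3%). At 1500 transcripts these shares were 24.9% and 12.4%. A single hormone-sensing cell of plate 2 library 1, with a depth of 45590 transcripts, held 54 of the 120 Aqp5 transcripts of its class. Without that cell, left out after its value was seen, the pooled hormone-sensing level was 2.26 in place of 3.55 per 10000. No Aqp5 transcript was found in libraries 2 and 4, so hormone-sensing cells were at least 134-fold and secretory cells at least 55.2-fold higher. The 134-fold uses the level of 3.55, which includes the cell with 54 Aqp5 transcripts.

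**Figure D1:**
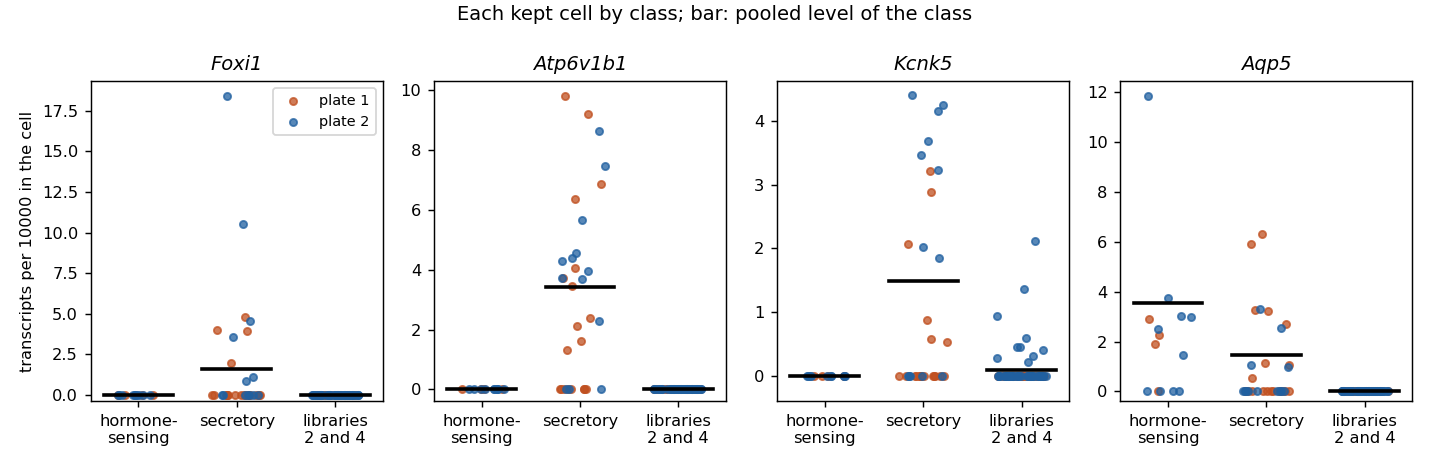
Transcripts per 10000 of Foxi1, Atp6v1b1, Kcnk5 and Aqp5 in each kept cell (points, coloured by plate) of the hormone-sensing class, the secretory class and libraries 2 and 4, with the pooled level of each class as a bar. Foxi1 and Atp6v1b1 are above 0 in secretory cells alone, Kcnk5 also in 10 cells of libraries 2 and 4, and Aqp5 in both luminal classes.

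The secretory cells with Foxi1 and those with Atp6v1b1 were nearly nested and not the same. Of the 10 cells with Foxi1, 9 also held Atp6v1b1, whereas the 21 cells with Atp6v1b1 included 12 without Foxi1. The shared cells were thus 90.0% of the Foxi1 set and 42.9% of the Atp6v1b1 set. Neither gene was found in 10 cells, and 1 cell held Foxi1 alone. The product of the marginal shares would give 6.56 cells with both, or 7.5 with the 4 cells led by non-epithelial markers set aside. Among secretory cells without Foxi1, 54.5% held Atp6v1b1, and 66.7% did so with the 4 cells led by non-epithelial markers set aside. Cells are not replicates, so no p-value is attached to these counts.

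By library, plate 1 library 1 gave 3 of 9 cells with Atp6v1b1 and 0 with Foxi1. Plate 1 library 3 gave 8 of 10 cells with Atp6v1b1, 4 of which held Foxi1. Plate 2 library 1 gave 2 of 4 cells with each gene, 1 of them shared. Plate 2 library 3 gave 8 of 9 cells with Atp6v1b1, 4 of which held Foxi1. The shared cells therefore came mainly from the libraries numbered 3, and leaving out either of these lowered the count from 9 to 5. The product of the marginal shares within a library would give 3.2 shared cells in plate 1 library 3, where 4 were found. It would give 1 in plate 2 library 1, where 1 was found, and 3.56 in plate 2 library 3, where 4 were. Depth moved with detection, since cells with Foxi1 had a median of 11128.5 transcripts against 5988.5 in secretory cells without it. Cells with Atp6v1b1 had a median of 7523 against 3425. Thinned to 1500 transcripts, 4.88 cells were expected to show Foxi1, 10.8 Atp6v1b1 and 2.04 both. At that depth 41.8% of the cells showing Foxi1 and 32.3% of the others would show Atp6v1b1, a narrower gap than that between 90.0% and 54.5%. The part of depth in the full counts was not tested.

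**Figure D2:**
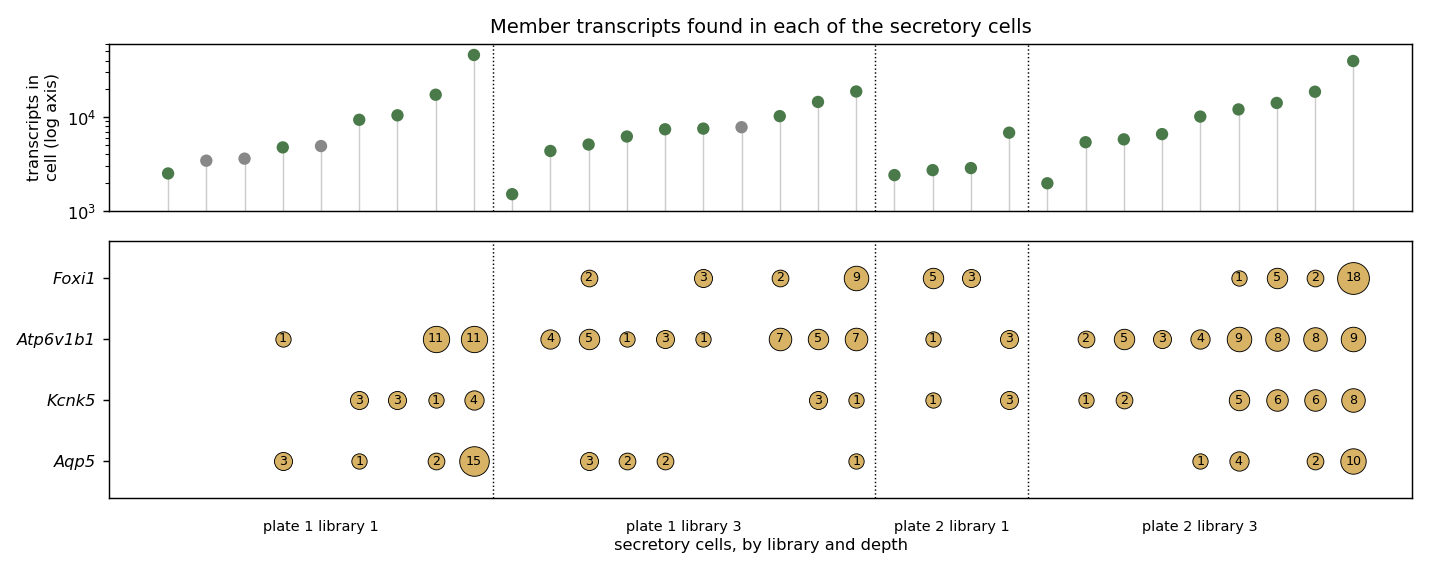
Each column is 1 of the 32 secretory cells, ordered by library and by depth. The upper panel gives the transcripts in the cell on a log axis (grey points are the 4 cells led by non-epithelial markers), and the lower panel the number of transcripts of each gene, where an empty place is 0. Foxi1 circles stand above an Atp6v1b1 circle in 9 of 10 columns.

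Of the other pairs, those with Atp6v1b1 were also nearly nested. Kcnk5 shared 12 of its 14 cells with Atp6v1b1, and Aqp5 shared 11 of its 12 secretory cells with Atp6v1b1. As shares of the 21 Atp6v1b1 cells these were 57.1% and 52.4%, and the product of the marginal shares would give 9.19 and 7.88 cells. With the 4 cells led by non-epithelial markers set aside, the product would give 10.5 and 9. The pairs without Atp6v1b1 shared a lower part of the smaller set. Since Atp6v1b1 was found in 21 of 32 secretory cells, a high share with it is partly given. Every pair, with or without Atp6v1b1, lay above its product. Foxi1 shared 6 of its 10 cells with Kcnk5 and 5 with Aqp5, where the product would give 4.38 and 3.75. With the cells led by non-epithelial markers set aside it would give 5 and 4.29. Among secretory cells without Foxi1, 36.4% held Kcnk5 and 31.8% held Aqp5. Kcnk5 shared 7 of its 14 cells with Aqp5, where the product would give 5.25, or 6 with the same cells set aside. All 4 genes were found together in 4 cells, and 8 secretory cells held none of them. Of the cells without Atp6v1b1, 1 held Foxi1 alone, 1 Kcnk5 alone, and 1 Kcnk5 with Aqp5.

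In the 10 Foxi1 cells the number of Atp6v1b1 transcripts did not follow that of Foxi1. The deepest cell, with 39510 transcripts, held 18 of Foxi1 and 9 of Atp6v1b1, and the cell with 9 of Foxi1 held 7 of Atp6v1b1. Cells with 5 Foxi1 transcripts held 8 and 1 of Atp6v1b1, and those with 3 held 1 and 0. The 3 cells with 2 Foxi1 transcripts held 5, 7 and 8, and the cell with 1 held 9. Scaled to depth, the highest Foxi1 levels were 18.4 and 10.5 per 10000, both in shallow cells of plate 2 library 1, whose Atp6v1b1 levels were 3.68 and 0. With 2715 and 2855 transcripts, these cells leave such levels loose.

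**Figure D3:**
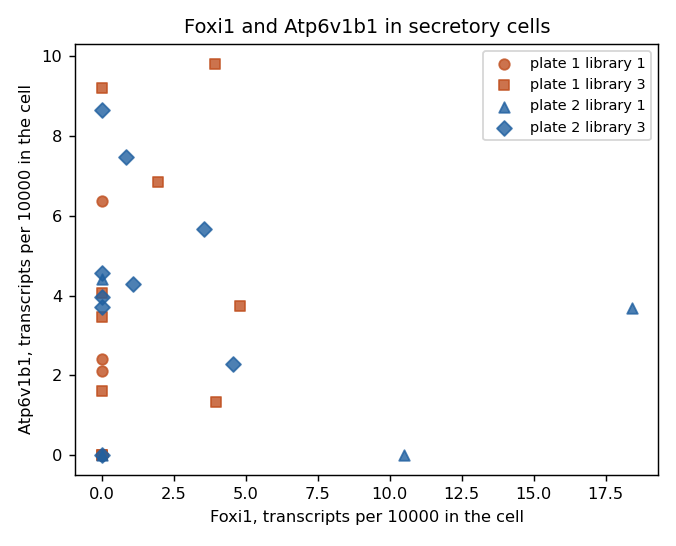
Foxi1 (horizontal axis) against Atp6v1b1 (vertical axis), both in transcripts per 10000 of the cell, for the 32 secretory cells, with symbols for the 4 libraries. Cells without Foxi1 cover nearly the whole Atp6v1b1 range, and the cells with the highest Foxi1 level, 18.4 and 10.5, have 3.68 and 0 of Atp6v1b1. Both are shallow cells, of 2715 and 2855 transcripts, with 5 and 3 of Foxi1 and 1 and 0 of Atp6v1b1.

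Whether secretory cells with Foxi1 carry more of the pump subunit was tested over the 3 libraries that had cells of both kinds, with an exact two-sided sign-flip permutation test within libraries. The Atp6v1b1 level with and without Foxi1 was 4.82 and 3.12 per 10000 in plate 1 library 3, 1.80 and 3.26 in plate 2 library 1, and 4.04 and 4.70 in plate 2 library 3. The plate 2 library 1 levels of Atp6v1b1 rest on 1 transcript with Foxi1 and 3 without it, from 2 cells of each kind. All 3 came from 1 of the 2 cells without Foxi1. The other held 0 Prlr, 0 Trf, 4 secretory, 1 luminal and 5 basal marker transcripts of 2404. Its markers thus give the name secretory little ground, and this cell also entered the fit across genes below. The Atp6v1b1 level was higher with Foxi1 in 1 of 3 libraries. The means were 3.55 ± 1.57 with and 3.69 ± 0.874 without, and the difference of -0.142 ± 1.64 (SD, n = 3 libraries) was within the spread between libraries (exact permutation p = 1, where 0.25 is the smallest value 3 libraries can give). The sign depended on the libraries, since it was 0.518 per 10000 if plate 2 library 1 was left out and 0.118 if plate 2 library 3 was. A mean over cells in place of the pooled level turned it to 0.924 (exact permutation p = 0.5). Kcnk5 differed by 0.00685 ± 1.76 (exact permutation p = 1) and Aqp5 by 0.522 ± 0.902 (exact permutation p = 0.5) over the same 3 libraries, with Kcnk5 higher in 1 and Aqp5 in 2 of them. In plate 2 library 1 Kcnk5 also gave 1 transcript with Foxi1 and 3 without it. Adjustment over these 3 comparisons could only raise p-values that none of them could have brought under 0.05.

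**Figure D4:**
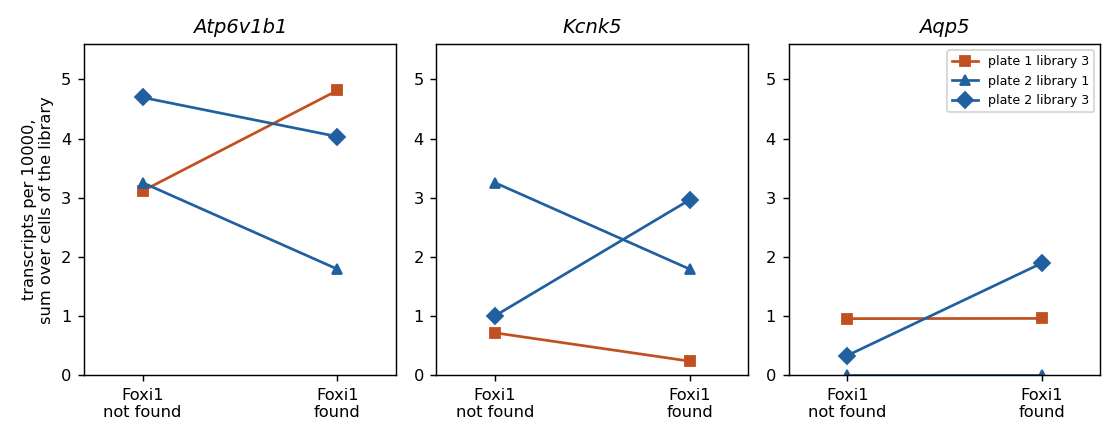
Pooled levels of Atp6v1b1, Kcnk5 and Aqp5, in transcripts per 10000, in secretory cells without (left) and with (right) Foxi1, with a line for each of the 3 libraries. Atp6v1b1 is higher with Foxi1 in plate 1 library 3 (4.82 against 3.12) and lower with it in both plate 2 libraries. In plate 2 library 1 this rests on 1 transcript with Foxi1 and 3 without it.

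The same split was then fitted across genes, on transcripts summed per library with the library as a block, in edgeR's quasi-likelihood test with Benjamini-Hochberg adjustment. Of 517 genes tested, 0 passed an adjusted p under 0.05 (0%), and 13 had an unadjusted p under 0.05. DESeq2 called 1 gene. Nothing says that the libraries came from separate animals, so these p-values measure the spread between libraries only. Atp6v1b1 was the 1 gene of the other 3 that passed the filter on low counts, with 55 transcripts in cells with Foxi1 and 30 in cells without, and its log2 difference was 0.02 ± 0.61 (SE, adjusted p = 0.997). That value lay on either side of 0 under other settings. Csn3, the milk protein kappa-casein, had the lowest p, with 1338 transcripts against 217 and a log2 difference of 2.61 ± 0.71 (adjusted p = 0.952), higher in 3 of 3 libraries. Spp1, the secreted phosphoprotein osteopontin, had a log2 difference of 2.46 ± 1.69. Ano1, a chloride channel, had 0.53 ± 0.52, and Atp6v1d, another V1 subunit, had -0.72 ± 0.52. Lcn2, a secreted iron-scavenging protein, had 0.65 ± 0.38, and Hes1, a Notch target, -0.87 ± 0.92. The claudin Cldn3 had -0.94 ± 0.66, and Foxo1, a forkhead factor of the insulin response, -0.19 ± 0.86. Of the lists, 2 of 13 V1 genes, 8 of 10 luminal progenitor genes and 8 of 14 milk genes were tested and none passed. Their median log2 differences were -0.35, -0.37 and 0.38 against -0.05 over all 517 genes. Wfdc18, a milk whey-type protein, was the gene DESeq2 called, at -4.15 ± 1.06 (adjusted p = 0.0443). In these 3 libraries the summed red blood cell markers were 0.381 per 10000 in the 10 cells with Foxi1 and 47.4 in the 13 without it, and their part in the result was not tested. Of the 383 transcripts behind the latter value, 375 came from 1 cell of plate 1 library 3, which was led by non-epithelial markers. The summed macrophage markers were 0.0761 and 0.372. Of the cells led by non-epithelial markers 1 was in the fit, and with it set aside the count of calls was again 0.

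The split by Atp6v1b1 was thinner still. Its arm without the transcript held 11 cells, 4 of them led by non-epithelial markers, and 3 libraries entered the fit, since plate 2 library 3 had 1 such cell. Of 283 genes tested, edgeR called 0 (0%) and DESeq2 0, with 4 and 9 at an unadjusted p under 0.05. Pooled over the 4 libraries, Foxi1 stood at 1.78 per 10000 with Atp6v1b1 and 0.592 without, Kcnk5 at 1.56 and 1.18, and Aqp5 at 1.71 and 0.197. The libraries differed in direction. Foxi1 was 0 in both arms of plate 1 library 1 and was 5.25 with and 5.70 without Atp6v1b1 in plate 2 library 1. Kcnk5 was 0.737 with and 1.75 without it in plate 1 library 1. These 2 splits share cells and are not independent.

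The rest of the proton pump was then set beside Atp6v1b1. For hormone-sensing against secretory cells, over 3 libraries with at least 3 cells of each class, edgeR tested 1896 genes and called 243 (12.8%), of which 121 (6.38%) were higher and 122 (6.43%) lower in hormone-sensing cells. The median log2 difference of all genes was 0.20, to which the values below are to be compared. This is the contrast that chose Foxi1 and Atp6v1b1, which passed the filter through their secretory counts alone (50 and 85 against 0 transcripts) and were called lower. Nothing is read from those calls. The classes were set by Prlr and Trf in these same cells. Calls of genes that follow either class, such as Foxa1 of the hormone-sensing marker list, were in part fixed by that rule. Aqp5 had a log2 difference of 1.52 ± 0.59 (adjusted p = 0.113) with 120 against 25 transcripts, higher in 3 of 3 libraries, and Kcnk5 did not pass the filter. Of the lists below, 11 of 13 V1, 10 of 12 V0, 8 of 14 potassium channel and 5 of 12 aquaporin genes could be analysed. So could 15 of 20 forkhead, 12 of 15 chloride and sodium transport and 12 of 14 milk genes. The rest of these lists could neither pass nor fail the filter.

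Of the 13 V1 genes 6 were tested, and 0 were higher and 1, Atp6v1b1, was lower in hormone-sensing cells, with a median of 0.33. The count and the median include Atp6v1b1, which was chosen on this contrast, so nothing is read from its call. Atp6v1a, the catalytic A subunit, had a log2 difference of 0.38 ± 0.49 with pooled levels of 2.61 and 2.07 per 10000. Atp6v1f, of the pump's central stalk, had 0.69 ± 0.51 with levels of 2.67 and 2.10. The B subunit found in most cells, Atp6v1b2, was not tested and had levels of 0.711 per 10000 in hormone-sensing cells, 0.605 in secretory cells and 0.593 in libraries 2 and 4. Its level was thus close in the 3 groups. Atp6v1b1 was 0, 3.44 and 0, but it was chosen for its difference between the luminal classes, so nothing is read from that contrast. Each molecule is tagged at its 3′ end, so these levels are not divided by gene length. Of the 12 V0 genes 3 were tested and 0 passed in either direction, with a median of -0.13. The accessory subunits Atp6ap1 and Atp6ap2 had log2 differences of -0.13 ± 0.56 and -0.27 ± 0.63. Atp6v1c2, a C subunit form of few tissues, gave 7 transcripts in 2 secretory cells, 0 in hormone-sensing cells and 10 in libraries 2 and 4. Atp6v0a4, Atp6v0d2 and Atp6v1g3, partners of Atp6v1b1 in kidney cells, were not analysed here.

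**Figure D5:**
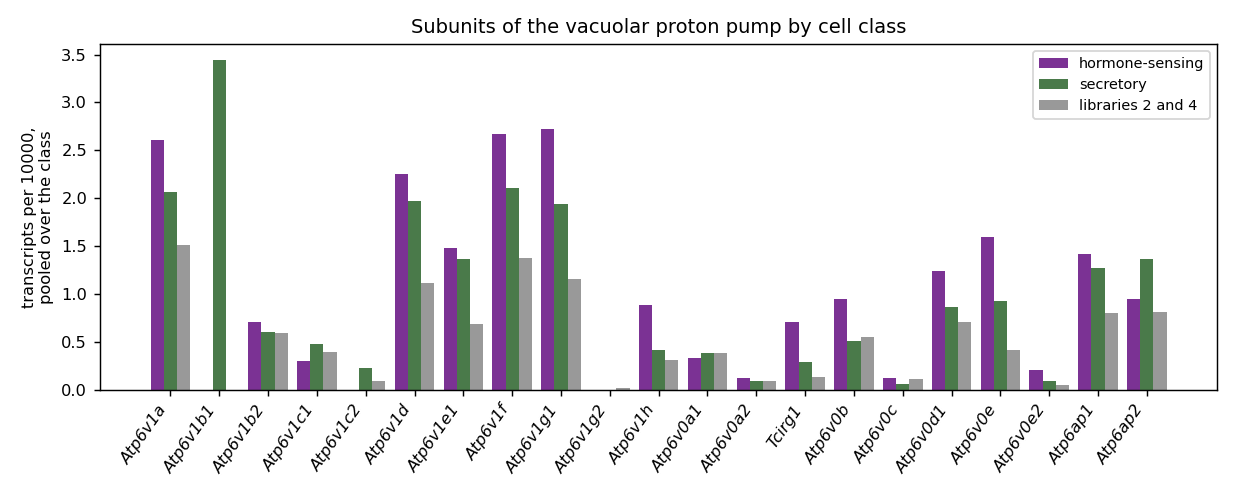
Pooled level, in transcripts per 10000, of each listed V1, V0 and accessory gene of the vacuolar proton pump in hormone-sensing cells, secretory cells and libraries 2 and 4. Atp6v1b1, at 3.44, is the 1 subunit with a level in the secretory class and 0 in the other 2 groups. It was chosen for its difference between the luminal classes.

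Among the relatives of the other genes, Kcnk1, also a background potassium channel, was the 1 of 14 channels tested, with a log2 difference of 0.46 ± 0.60 and levels of 1.21 and 1.08 per 10000 in hormone-sensing and secretory cells. Aqp5 was the 1 aquaporin of 12 tested. Aqp1, the water channel of vessel walls, gave 65 transcripts in libraries 2 and 4, 1 in secretory and 0 in hormone-sensing cells, and Aqp3 gave 1 transcript in all. Of 20 forkhead genes 4 were tested, of which 1 was higher and 2 lower in hormone-sensing cells, with a median of -1.35. The count and the median include Foxi1, which was chosen on this contrast, so nothing is read from them. Foxa1, which opens chromatin for the estrogen receptor, was higher by 3.28 ± 0.60 (adjusted p = 0.000728). Foxo1 fell by 3.09 on the log2 scale (SE 0.54, adjusted p = 0.000433), and Foxi1 was the other. Foxp1 had 0.39 ± 0.52. Foxi2 and Foxi3 were not analysed here.

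Of the 20 acid-base genes 14 could be analysed and none passed the filter, so only counts are given. Car2, a cytosolic carbonic anhydrase that works with proton pumps in kidney cells, gave 28 transcripts in 9 secretory cells, 2 in 1 hormone-sensing cell and 3 in libraries 2 and 4. Car6, a secreted carbonic anhydrase of saliva and milk, gave 14 transcripts in 4 secretory cells and 0 elsewhere. Car12, a membrane form, gave 151 transcripts in libraries 2 and 4, 13 in secretory and 0 in hormone-sensing cells. Slc4a1, the chloride-bicarbonate exchanger of acid-secreting kidney cells, was 0 in all 3 groups. Of 15 chloride and sodium transport genes 5 were tested, with 1 higher and 0 lower and a median of 1.36. The 1 was Slc12a2, which loads cells with chloride, at 2.61 ± 0.48 (adjusted p = 0.000728) and levels of 16.1 and 1.62 per 10000. Ano1 had -1.58 ± 0.61 (adjusted p = 0.110), and it passed at 3000 transcripts per cell, at -1.77 (adjusted p = 0.0176).

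Of the 16 genes listed for ionocytes of other organs, 9 could be analysed and 0 passed the filter. The listed genes differed in where they were found. Itpr2, a calcium release channel, gave 61 transcripts in 17 secretory cells, 10 in 4 hormone-sensing cells and 72 in libraries 2 and 4. Moxd1 gave 285 transcripts in libraries 2 and 4 and 0 in both luminal classes. Tfcp2l1, a transcription factor of kidney ducts, gave 15 transcripts in hormone-sensing, 6 in secretory and 2 in libraries 2 and 4, and Rasd1 gave 8, 2 and 3. Dmrt2 was 0 in all 3 groups, Hepacam2 gave 1 transcript, in a hormone-sensing cell, and Ascl3 and Cftr were not analysed here. Lists of the secretory class itself had the direction that the class rule implies. All 8 tested luminal progenitor genes of 10 and all 7 tested milk genes of 14 were lower in hormone-sensing cells, with medians of -4.08 and -6.19. Elf5, a transcription factor of the secretory lineage, had 3 against 100 transcripts, and the receptor gene Kit 1 against 136. Of 13 tight junction genes 5 were tested, with 1 higher, Cldn10 at 2.89 ± 0.64 (adjusted p = 0.00381), and 0 lower. Without plate 1 library 3, Cldn10 had an adjusted p of 0.0809 (edgeR). Cldn4 had 1.41 ± 0.60 (adjusted p = 0.149) and Cldn3 -0.18 ± 0.46.

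Between libraries 1 and 3 and libraries 2 and 4, edgeR tested 3528 genes and called 467 (13.2%), of which 204 (5.78%) were higher and 263 (7.45%) lower in libraries 1 and 3. Aqp5, chosen on this contrast, was the 1 gene of the 4 that passed the filter, with 166 against 0 transcripts, and nothing is read from its call. Library number and cell class cannot be told apart here.

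The genes whose levels across the 46 luminal cells were most like that of Foxi1 were found by Pearson r of log2(transcripts per 10000 + 1), among 8944 genes found in at least 5 of the cells. They were Tlr4, a receptor for bacterial lipopolysaccharide (r = 0.643), Lysmd2 (0.639), 2610044O15Rik8 (0.625), Fads1, a fatty acid desaturase (0.618), Herc4, a ubiquitin ligase (0.603), and Pim3, a kinase (0.591). Fads1 was found in 9 of the 10 Foxi1 cells and Lysmd2 in 8, whereas Tlr4 was found in 4. Atp6v1b1 ranked 249th by this measure with r = 0.339, Kcnk5 421st with 0.286, and Aqp5 had -0.08. These values include the hormone-sensing cells, in which Foxi1, Atp6v1b1 and Kcnk5 were all 0. Within the 32 secretory cells r with Foxi1 was 0.204 for Atp6v1b1, 0.183 for Kcnk5 and 0.018 for Aqp5. The cells share libraries and depth, and counts this low make the order of the list loose.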

How the data were processed

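Per the labels' protocols, single cells went through SORT-seq, a robotic CEL-seq2 with well and molecule tags, and reads were 75 bp pairs. The submitters' processing notes name mm10 and BWA 0.6.2-r126 without settings. The deposited table holds the authors' expected counts of transcripts per gene and well. Its values follow a correction for molecules sharing 1 of 256 tags: 518732 of 518737 values above 0 became whole (tolerance 1e-06) when it was undone. Further filters by the authors are not stated in the labels. Every library uses the same 96 well numbers, so a shared number marks no shared cell.

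Expected counts were rounded, and totals leave out the spike-ins. The 4 genes, the gene lists and the cell rule were chosen with earlier results of these data known. Kept cells had library medians of 4872 to 21255 transcripts, which limits detection of low genes. Sums per library and arm entered the quasi-likelihood test of edgeR 4.0.16 (filterByExpr, TMM, Benjamini-Hochberg adjusted p under 0.05, library as block where arms shared libraries) in R 4.3.3, with DESeq2 1.42.0 as an alternative. An arm needed at least 2 cells and a class at least 3 cells in a library. The standard error is the log2 difference over the root of the F statistic. Thinning to 1500 transcripts used the exact expectation per cell. The fits were also run on simulated counts with large known changes in genes of higher counts and no differences between libraries. That setting is unlike sums of a few cells, so it does not give the power behind the counts of 0 calls. Alternatives covered normalization, tool, filters, depth, detection limit, block, marker-led cells and each library left out.

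Named genes were the 4 genes, up to 4 passing and 2 other tested genes of each list, and the 6 genes most like Foxi1. The largest changes among passing genes of the Foxi1 split were also to be named, and there were 0. Genes given by transcripts alone, Wfdc18 included, were chosen after their values were seen. Gene positions are from GENCODE M21 and promoter windows from RefSeq. All 4 symbols matched. The arms of a split come from the same library, which is where the pairing by library comes from.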

Additional observations from a re-analysis of the deposited data

Results flagged for a closer look

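In 3 sets of the 4 libraries of a plate the highest library stood far from the other libraries in transcripts per 10000 of all kept cells, measured as its gap to the nearest library over the whole range, with a limit of 0.829 for 4 samples. Chance flags about 1 in 20 groups of 4 values drawn from 1 population, a rate that does not hold for these mixed sets. Foxi1 was 0.840 in plate 1 library 3 and 0 in the other 3 libraries of plate 1, a ratio of 1. Atp6v1b1 was 2.49 in plate 2 library 3 (ratio 0.900), and Kcnk5 was 1.46 in the same library (ratio 0.881). These sets mix libraries 1 and 3 with libraries 2 and 4, in which the genes were at or near 0.

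The Atp6v1b1 level in secretory cells with Foxi1 minus that in cells without it was 1.70 per 10000 in plate 1 library 3. It was -1.46 in plate 2 library 1 and -0.662 in plate 2 library 3. The plate 2 library 1 value rests on 1 transcript with Foxi1 and 3 without it. The sign thus differed between the 1 library of plate 1 and those of plate 2, and this difference was not tested. It depended on pooling: as a mean over cells, plate 2 library 3 had 4.93 with Foxi1 and 4.18 without.

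Wells of libraries 1 and 3 below the cell limits, 338 in all with 90110 transcripts, held 4 Foxi1, 4 Kcnk5 and 8 Aqp5 transcripts, each above the 3 counts that a count of 0 allows. Each of the 4 Foxi1 transcripts lay in a well of its own with none of the other 3 genes. The same wells held 2 Atp6v1b1 transcripts. The 316 low wells of libraries 2 and 4 held 0, 0, 0 and 1 transcripts of Foxi1, Atp6v1b1, Kcnk5 and Aqp5.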

How the results depend on the processing

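The split by Foxi1 gave 0 calls, 1 with DESeq2, 5 with no filter on low counts (Csn3, Spp1, Wfdc18, Hba-a1 and Hbb-b2) and 0 to 1 with a library left out. Hormone-sensing against secretory cells gave 243 calls, 385 at 3000 transcripts per cell and 167 to 278 with a library left out. Libraries 1 and 3 against 2 and 4 gave 467 calls, 1299 with no filter and 399 to 851 with a library left out (724 without plate 1 library 1, 851 without plate 1 library 2). Cells with both Foxi1 and Atp6v1b1 numbered 9, 2.04 expected at 1500 transcripts, and 5 to 9 with a library left out.

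No block by library gave 0 calls for the split by Foxi1, 0 for that by Atp6v1b1 and 241 for the classes, and plate as a replicate block gave 464 between libraries, so the pairing by library changed no count by over 1.5 times. The Atp6v1b1 difference of -0.142 per 10000 ran from -1.06 to 0.518 with a library left out and was 0.118 without plate 2 library 3 and 0.924 as a mean over cells. Its log2 difference of 0.02 was -0.043 with RLE scaling, -0.11 with DESeq2, -0.078 without cells led by non-epithelial markers and -0.19 with at least 2 transcripts to be found. Foxo1 turned to 0.53 in that split without plate 2 library 1 or with at least 3 cells per arm and 0.60 at 3000 transcripts, and Hes1 ran from -2.10 to 0.084 with a library left out. Between the classes Atp6v1a turned to -0.021 with at least 1 cell per class, Atp6ap1 to 0.0043 without the block and Atp6ap2 ran from -1.14 to 0.13 with a library left out. The cause was not tested for any of these.

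Of 349 values of named genes under alternatives, 330 kept direction and side of the threshold. The split by Atp6v1b1 was not run at 3000 transcripts, since too few libraries had both arms. Depth limits the 0 of Aqp5 in the secretory cells of plate 2 library 1 and in the hormone-sensing cell of plate 1 library 1.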
